A study of Mus musculus with 48 samples.

Results

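Blood of female C57BL/6J mice that had been exposed to chronic ultra-mild stress (CUMS mice, n = 6) was compared with blood of mice kept without stress (control mice, n = 6), all of them sham-operated with intact ovaries and 17 weeks of age. These 12 arrays, chosen by their labels, are 12 of the 48 in the series, which also holds ovariectomized mice (OVX mice) with and without CUMS and the medial prefrontal cortex (mPFC) of every mouse. RNA came from the pellet of heparinized whole blood, and each mouse was hybridized to 1 one-colour Agilent expression array. CUMS is a rotation of mild disturbances such as cage tilt, soiled bedding, restricted access to food and changes of the light cycle, applied for several weeks as a model of depression. Values are log2 signals minus the 75th percentile of the array, so that 0 is the level of the 75th percentile, and differences are CUMS minus control in log2 units.

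The blood pellet holds red cells, their RNA-containing precursors, platelets, neutrophils, monocytes and lymphocytes, and its RNA is a mixture of all of these. Stress acts on this mixture through adrenal corticosteroids and sympathetic nerves, which are known to move leukocytes between blood and tissues. In RNA of whole blood, fewer cells of a type and less RNA per cell of that type cannot be told apart. Cirbp and Rbm3, which are described first, encode cold-inducible RNA-binding proteins, which bind messenger RNA and rise with mild cooling and with the daily cycle of body temperature.

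Of the 55681 probes, 22050 were well above background on all 12 arrays and were tested. limma with Benjamini-Hochberg adjustment called 4068 probes at an adjusted p under 0.05, 18.4% of those tested, of which 2069 were higher (9.38%) and 1999 lower (9.07%) in CUMS mice. The median difference over all tested probes was -0.05. The 6 CUMS and 6 control arrays did not overlap in 878 probes (3.98%), with CUMS mice above in 325 (1.47%) and below in 553 (2.51%). The sample was blood by most of its markers: all 16 neutrophil, 14 B cell and 14 platelet genes of the lists used here had a higher signal in blood than in mPFC of the same mice. The same held for 15 of 16 T cell, 16 of 19 erythroid and 5 of 7 plasma cell genes, but for only 6 of 11 monocyte genes (median difference 0.24). These counts include genes not detected in blood, such as the neutrophil gene Mpo. Of 11 probes of 7 brain genes, 10 had a lower signal in blood than in mPFC and the Snap25 probe a higher one (by 0.59), and 6 of the 11 were well above background on all 12 blood arrays.

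The arrays differed in ways that go along with the groups. Every CUMS array was marked for evaluation by the quality metrics of the extraction software, against the arrays of control mice 2, 5 and 6 only. The median coefficient of variation of the signal was 7.3% to 8.71% on control arrays and 8.57% to 12.1% on CUMS arrays, lowest in CUMS mouse 1. The 6 control arrays lay on 1 slide together with CUMS mice 1 and 2, and CUMS mice 3 to 6 lay on a second slide with no control. For most of the comparison slide and group cannot be told apart, and the pair of CUMS arrays on the slide of the controls is the only place where they can. Against the controls of that slide, these 2 arrays gave 0 calls by limma with Benjamini-Hochberg adjustment, with 5804 probes at an unadjusted p under 0.05, against 8517 (38.6%) in the whole comparison. Within the CUMS group, 507 probes (2.3%) differed between the slides, 459 of them lower on the slide without controls, and 81 were called when CUMS mouse 2 was left out. The array of CUMS mouse 2 stood apart: the 75th percentile of its signal was 54.94, against 81.25 to 132.4 in control mice. With that array left out, 2943 probes were called in place of 4068. Leaving out control mouse 1 ended all calls, and a shift to the spike-in controls in place of the 75th percentile gave 0 calls as well. Every count of calls given here depends on these settings.

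The differences also followed the base composition of the probes. Among probes with 18.3% to 38.3% G and C the median difference was -0.25, and 19.2% of these 6266 probes were lower and 4.37% higher in CUMS mice. Among probes with 50% to 91.7% G and C the median difference was 0.09, with 1.97% of 5338 probes lower and 12.6% higher. The median deviation of the G and C rich probes on an array less that of the poor ones lay between -0.42 and 0.07 in control mice and between -0.12 and 0.72 in CUMS mice, with the highest value in CUMS mouse 2. After a smooth curve on the G and C content of the probe was subtracted from each array (the base composition step), 2627 probes were called (11.9%), of which 1771 were higher (8.03%) and 856 lower (3.88%). Of the probes first called, 1536 higher and 789 lower probes were called again. The part of base composition in the results was not tested, and the value after this step is given beside the named genes and lists whose calls it changes.

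**Figure D1:**
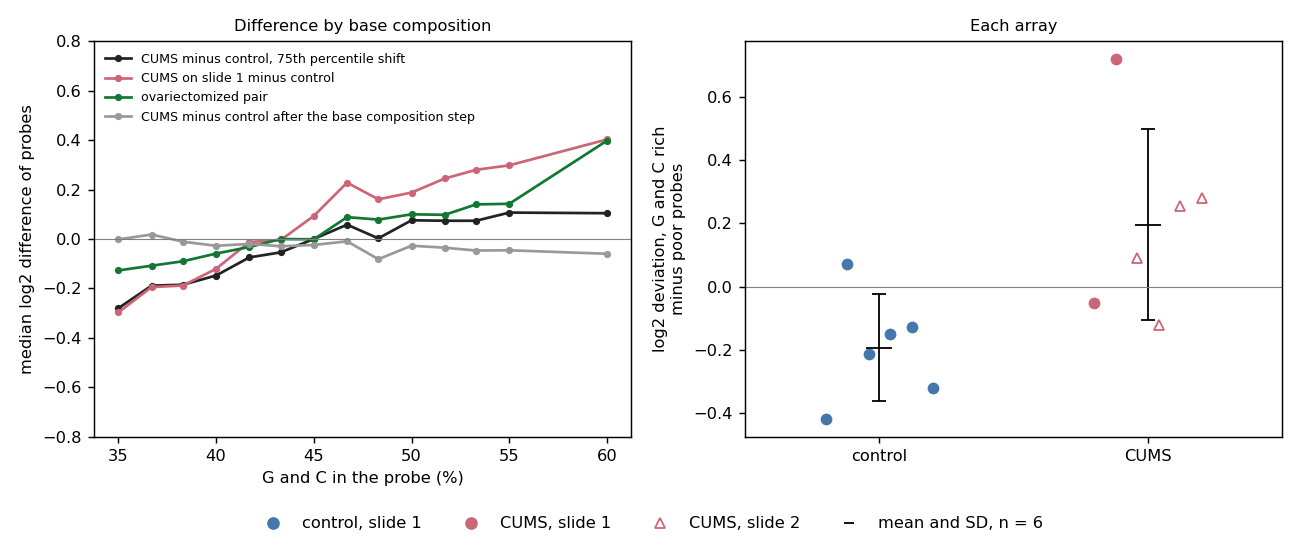
Left, median log2 difference of probes (y axis) by the percentage of G and C in the probe (x axis), for all CUMS mice before and after the base composition step, for the CUMS mice on the slide of the controls and for the ovariectomized pair. Right, for each array, the median log2 deviation of G and C rich probes minus that of poor probes, 1 point per mouse with group mean and SD (n = 6), where control mice lie between -0.42 and 0.07 and CUMS mouse 2 lies highest at 0.72.

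The cold-inducible gene Rbm3 was lower in CUMS mice on both of its probes, and Cirbp on 1 of 2. Cirbp and Rbm3 are each measured by 2 detected probes, and the first 30 of the 60 bases of each are shown because base composition bears on the result (mm9, strand of the probe, G and C in capitals). The Cirbp probes lie at chr10:79634274-79634333 and chr10:79635422-79635481 on the plus strand, and the Rbm3 probes at chrX:7719656-7719715 and chrX:7720785-7720844 on the minus strand.
Cirbp, 35% G and C: atttatattGtCCttttttaCCGaaGaCat
Cirbp, 53.3% G and C: CttCtGtGGaaaaGataaaGaaGCtGGGCt
Rbm3, 40% G and C: atGGCCaGaaaGtGatttCtGaatGtaCCt
Rbm3, 51.7% G and C: atGaCaGtCGtCCtGGaGGatatGGatatG

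The Rbm3 probe with 40% G and C read 3.65, 3.75 and 4.12 (lowest, median, highest) in control mice and 2.66, 2.89 and 3.17 in CUMS mice. All CUMS mice were below all control mice, and CUMS mice 1 and 2, on the slide of the controls, read 2.97 and 3. The level was 1.91-fold lower in CUMS mice (-0.93 ± 0.13 SE, n = 6 per group, limma adjusted p = 0.0166), with -0.81 after the base composition step (adjusted p = 0.0203). The exact two-sided permutation test gave p = 0.00216, the smallest that 924 splits of 6 against 6 allow. Every probe without overlap gives this value, and the gene was picked among such probes, so the test adds nothing to the lack of overlap. The richer Rbm3 probe read 2.52, 2.7 and 3.08 in control mice and 1.77, 1.99 and 2.4 in CUMS mice, a fall of 1.65-fold (-0.72 ± 0.14 SE, adjusted p = 0.017). It did not overlap between the groups either, and both probes of this gene fell within the slide of the controls, by 0.85 and 0.68.

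Cirbp differed between its probes. The probe with 35% G and C read 2.27, 2.66 and 3.03 in control mice and 1.16, 1.24 and 1.97 in CUMS mice. These values did not overlap, and CUMS mice 1 and 2 read 1.52 and 1.23, below every control on their slide. This was a 2.41-fold lower level (-1.27 ± 0.18 SE, adjusted p = 0.0166), and -0.99 after the base composition step. The probe with 53.3% G and C read 2.13, 2.27 and 2.97 in control mice and 2, 2.5 and 2.97 in CUMS mice, with a difference of 0.03 ± 0.19 (adjusted p = 0.923). The groups overlapped fully on that probe, so that the fall was seen on the poorer Cirbp probe only.

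Among the heat shock genes, which encode chaperones induced by protein damage, the direction was not shared. Of 13 detected members of the list of cold-inducible and heat shock genes, each read by its brightest probe, 1 was higher and 1 lower. This is 15.4% called, against 18.4% of all probes, and the median was 0.03 against -0.05 over all probes. After the base composition step 2 were higher and 1 lower. Hsph1, a co-chaperone of Hsp70, read 1.24, 1.52 and 1.99 in control mice and 1.65, 2.23 and 2.53 in CUMS mice, a 1.53-fold rise (0.62 ± 0.16 SE, adjusted p = 0.0245) with overlap between the groups. The Cirbp promoter is shown because it holds the letters TCCCCGCC, known as a mild-cold response element. They were sought on both strands of the RefSeq promoters, 250 bases before to 50 after the start (GRCm38.p6), and 6.19% of 27025 genes hold them. So do 4 of the 8 genes of this list with a promoter, which are Cirbp and the heat shock genes Bag3, Dnaja1 and Dnajb1. In Cirbp the letters begin 247 bases before the start. The stretch lies at chr10:80167589-80167624 on the plus strand, with the motif in capitals.
Cirbp promoter: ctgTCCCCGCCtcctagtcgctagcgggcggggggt

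**Figure D2:**
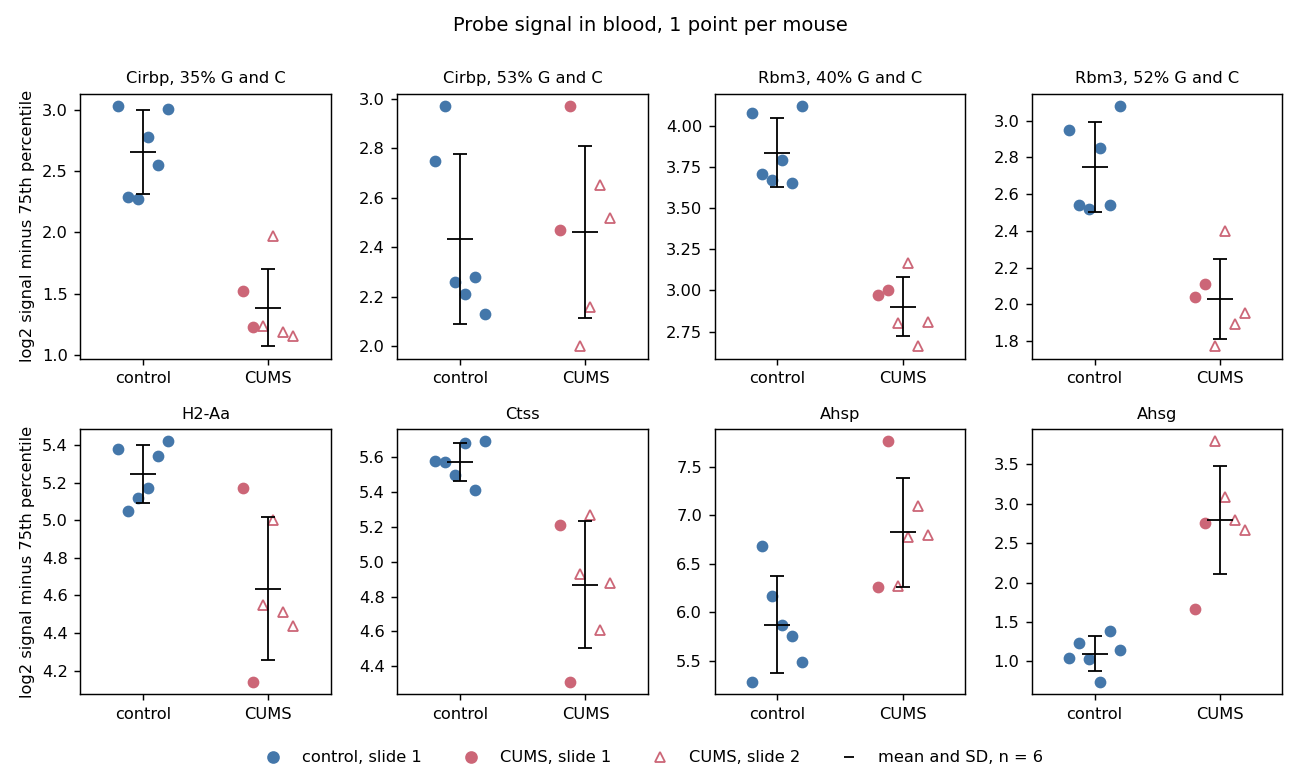
Log2 signal minus the 75th percentile of the array (y axis) in control and CUMS mice, 1 point per mouse, with mean and SD (n = 6), for both probes of Cirbp and of Rbm3 and for H2-Aa, Ctss, Ahsp and Ahsg. CUMS mice on the slide of the controls have filled symbols and those on the second slide open symbols. On both Rbm3 probes all CUMS mice lie below all control mice, and the Cirbp probe with 53.3% G and C shows a difference of 0.03.

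Some other RNA-binding proteins were lower. Of 30 detected SR proteins and hnRNPs, nuclear proteins that bind pre-messenger RNA and steer splicing, 7 were lower and 2 higher (9.07% of all probes were called lower and 9.38% higher), and the list median was -0.35 against -0.05 over all probes. After the base composition step the median was -0.16, with 3 lower and 1 higher, and the median G and C content of these probes was 35.8%. Hnrnpa1 read 1.45, 1.69 and 2.07 in control mice and 0.64, 0.93 and 1.06 in CUMS mice. No CUMS mouse reached a control mouse, and the level was 1.81-fold lower (-0.86 ± 0.13 SE, adjusted p = 0.0166). A second and much dimmer Hnrnpa1 probe moved the other way, with a difference of 0.53 ± 0.18 (adjusted p = 0.0479, and 0.0669 after the base composition step). Hnrnpd, which binds AU-rich elements of unstable messages, was lower by a factor of 1.61 (-0.68 ± 0.13 SE, adjusted p = 0.017). Hnrnpdl was lower on 1 probe (-0.86 ± 0.16 SE, adjusted p = 0.017) and gave -0.34 on its brighter probe (adjusted p = 0.0686).

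Genes of major histocompatibility complex (MHC) class II presentation were lower in CUMS mice. Class II molecules display peptides to CD4 T cells and are made by B cells, dendritic cells and some monocytes under the control of the transactivator Ciita. All 11 genes of the list were detected, 7 were lower and 0 higher (63.6% called, against 9.07% of all probes called lower), and all 11 were below control at an unadjusted p under 0.05, as were 21.1% of all probes. The list median was -0.55, and -0.50 with 6 lower after the base composition step. The mean deviation of the 11 genes was 0.08, 0.32 and 0.43 (lowest, median, highest) in control mice and -0.70, -0.40 and 0.14 in CUMS mice. CUMS mouse 1 had the highest of these CUMS values, within the range of the controls on the same slide, and CUMS mouse 2 the lowest. Leaving out 1 array gave 0 lower genes without control mouse 1 and 10 without CUMS mouse 4, with 6 without CUMS mouse 2. Within the slide of the controls the list median was -0.56, carried by CUMS mouse 2.

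H2-Aa, the alpha chain of the I-A molecule, read 5.05, 5.26 and 5.42 in control mice and 4.14, 4.53 and 5.17 in CUMS mice. CUMS mouse 1, at 5.17, lay among the controls, and the level was 1.53-fold lower (-0.61 ± 0.17 SE, adjusted p = 0.0268). H2-Ob, a chain of the H2-O protein that restrains peptide loading, read 4.17, 4.56 and 4.74 in control mice and 3.44, 3.59 and 4.27 in CUMS mice. It was 1.74-fold lower (-0.80 ± 0.16 SE, adjusted p = 0.0172), and a second probe with 51.7% G and C gave -0.33 ± 0.17 (adjusted p = 0.162).

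Ctss, the protease cathepsin S that trims the invariant chain, read 5.41, 5.57 and 5.69 in control mice and 4.31, 4.9 and 5.27 in CUMS mice, without overlap. It was 1.63-fold lower (-0.70 ± 0.16 SE, adjusted p = 0.0177). Ciita read 0.37, 0.81 and 0.96 in control mice and -0.90, -0.62 and 0.53 in CUMS mice, with the highest CUMS value in CUMS mouse 1. It was 2.35-fold lower (-1.23 ± 0.22 SE, adjusted p = 0.0166) on a probe with 30% G and C, and by 0.65 within the slide of the controls. Cd74, the invariant chain, differed by -0.35 (adjusted p = 0.127).

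Class II promoters share a module of conserved boxes, among them a Y box whose core is GATTGG. The core on the strand of the transcript, 75 to 35 bases before the start, was found in 5 of the 8 list genes with a RefSeq promoter (62.5%) and in 666 of 27025 genes (2.46%). The motif was chosen after the values of these genes had been seen, and its presence is a description of the genes and not of binding. The stretches are printed in the direction of transcription with the core in capitals (GRCm38.p6): H2-Aa at chr17:34287859-34287928 on the minus strand, and on the plus strand H2-Eb1 at chr17:34305762-34305831, H2-Ob at chr17:34238800-34238869, H2-Oa at chr17:34092274-34092343 and H2-DMb1 at chr17:34153086-34153155.
H2-Aa: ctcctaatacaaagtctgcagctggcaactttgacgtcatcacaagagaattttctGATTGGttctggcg
H2-Eb1: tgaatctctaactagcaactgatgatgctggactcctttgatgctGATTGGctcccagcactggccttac
H2-Ob: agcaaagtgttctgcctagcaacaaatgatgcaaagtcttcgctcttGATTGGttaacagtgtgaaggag
H2-Oa: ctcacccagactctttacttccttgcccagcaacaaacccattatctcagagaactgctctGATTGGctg
H2-DMb1: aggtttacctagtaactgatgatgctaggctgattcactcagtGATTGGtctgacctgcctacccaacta
Of these 5 genes, H2-Aa, H2-Eb1, H2-Ob and H2-Oa were called lower, with an adjusted p of 0.0732 for H2-Eb1 after the base composition step, and H2-DMb1 gave -0.41 (adjusted p = 0.0933).

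B cell genes were lower as well. Of 14 detected B cell markers 8 were lower and 0 higher (57.1% called, against 9.07% of all probes called lower), the median was -0.51, and Pax5 alone had a positive difference, of 0.32 (adjusted p = 0.106). After the base composition step 4 were lower and the median was -0.39. Their mean deviation was -0.09, 0.27 and 0.38 in control mice and -0.63, -0.23 and 0.17 in CUMS mice, with overlap between the groups. Control mouse 2 had the lowest value among the controls, and CUMS mouse 1 the highest among CUMS mice. The count was 0 without control mouse 1 and without CUMS mouse 5, and 4 without CUMS mouse 2.

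Fcrla, a Fc receptor-like protein of B cells, read 3.51, 3.78 and 3.99 in control mice and 2.53, 2.98 and 3.58 in CUMS mice, a 1.67-fold fall (-0.74 ± 0.18 SE, adjusted p = 0.0197). Ebf1, a transcription factor that specifies B cells, read 1.08, 1.7 and 1.81 in control mice and 0.6, 0.74 and 1.48 in CUMS mice, a 1.6-fold fall (-0.68 ± 0.18 SE, adjusted p = 0.0271). Both overlapped between the groups, Fcrla through CUMS mouse 1 and Ebf1 through CUMS mice 1 and 4, which lay above control mouse 2 or among the other controls. Spib was lower by 0.60 ± 0.18 SE (adjusted p = 0.0341) and the adaptor Bank1 by 0.58 ± 0.17 SE (adjusted p = 0.0351), and a second Bank1 probe was lower by 0.72 (adjusted p = 0.0273). After the base composition step Spib and the brighter Bank1 probe were no longer called (adjusted p = 0.14 and 0.0803).

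Of other leukocyte markers few were called. T cell genes (16 detected, median -0.20), natural killer genes (12, median -0.19) and monocyte genes (7, median -0.42) had 0 calls by limma with Benjamini-Hochberg adjustment. Of all probes 18.4% were called. At an unadjusted p under 0.05, 2 T cell, 3 natural killer and 3 monocyte genes were lower, as were 21.1% of all probes. The monocyte share, 3 of 7, was above that of all probes, and the T cell share, 2 of 16, below it. After the base composition step 1 natural killer gene was called lower. Csf1r, the receptor that sustains monocytes, read 5.42, 5.47 and 5.97 in control mice and 4.58, 5.06 and 5.77 in CUMS mice, with a difference of -0.42 ± 0.18 (adjusted p = 0.101). Neutrophil genes lay near the median of all probes (13 detected, median 0.05, 1 higher and 1 lower, 15.4% called against 18.4% of all probes). Camp, an antimicrobial peptide of neutrophil granules, read 1.11, 1.36 and 2.19 in control mice and 1.85, 2.16 and 2.54 in CUMS mice, a 1.63-fold rise (0.70 ± 0.19 SE, adjusted p = 0.0279). Retnlg, a resistin-like protein of neutrophils, read 4.81, 5.15 and 5.32 in control mice and 3.75, 4.56 and 4.74 in CUMS mice, without overlap and 1.57-fold lower (-0.65 ± 0.17 SE, adjusted p = 0.024).

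Eosinophil genes included the largest fall among named genes at or above the 75th percentile. Ear12, an eosinophil-associated ribonuclease, read 0.92, 1.21 and 1.82 in control mice and -0.85, -0.25 and 0.69 in CUMS mice. All CUMS mice were below all control mice, and the level was 2.54-fold lower (-1.35 ± 0.26 SE, adjusted p = 0.017). The ribonuclease genes of this family are near-identical copies, so the probe may read several of them. The interleukin 5 receptor gene Il5ra was 1.68-fold lower (-0.75 ± 0.17 SE, adjusted p = 0.0177) and the eotaxin receptor gene Ccr3 1.61-fold lower (-0.69 ± 0.17 SE, adjusted p = 0.0205). These 2 were the called members among 4 detected of 10 genes of eosinophils, basophils and mast cells (50% called, against 9.07% of all probes called lower). Itgax, which encodes CD11c of dendritic cells, was 1.57-fold lower (-0.65 ± 0.18 SE, adjusted p = 0.0271). It was the 1 called member of 5 detected dendritic cell genes (20% called, against the same 9.07%).

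Erythroid genes stood above the median of all probes. Of 18 detected members 3 were higher and 0 lower (16.7% called, against 9.38% of all probes called higher), 10 were higher at an unadjusted p under 0.05 (17.5% of all probes), and the median was 0.52. The base composition step left 4 higher and a median of 0.64. The mean deviation was -0.64, -0.30 and 0.42 in control mice and -0.04, 0.19 and 0.85 in CUMS mice. Control mouse 2, at 0.42, had more erythroid signal than every CUMS mouse except CUMS mouse 2. CUMS mouse 1, at -0.04, lay within the range of the controls, and the list median within their slide was 0.74. Without control mouse 2 the count rose to 13, without CUMS mouse 2 it was 1, and without control mouse 1 it was 0.

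Ahsp, a chaperone of free alpha globin, read 5.28, 5.81 and 6.68 in control mice and 6.26, 6.79 and 7.76 in CUMS mice, 1.93-fold higher (0.95 ± 0.27 SE, adjusted p = 0.0308). Trim10, a protein of red cell precursors, was 1.89-fold higher (0.92 ± 0.28 SE, adjusted p = 0.0381). Epor, the erythropoietin receptor, read -0.08, -0.03 and 0.18 in control mice and 0.3, 0.47 and 0.62 in CUMS mice, without overlap (0.48 ± 0.11 SE, adjusted p = 0.0179). Its adjusted p was 0.0635 after the base composition step. The alpha globin gene Hba-a1 gave 0.33 (adjusted p = 0.157). Heme synthesis and iron import genes had a median of 0.30 over 18 detected members, with 0 higher and 1 lower (5.56% called, against 18.4% of all probes). After the base composition step there were 0 of either. Platelet genes had a median of 0.28 over 14 members and 0 calls by limma with Benjamini-Hochberg adjustment, 0 also at an unadjusted p under 0.05. The platelet chemokine Pf4 read 7.19, 8.65 and 8.94 in control mice and 8.66, 8.85 and 9.06 in CUMS mice, with control mouse 2 lowest.

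**Figure D3:**
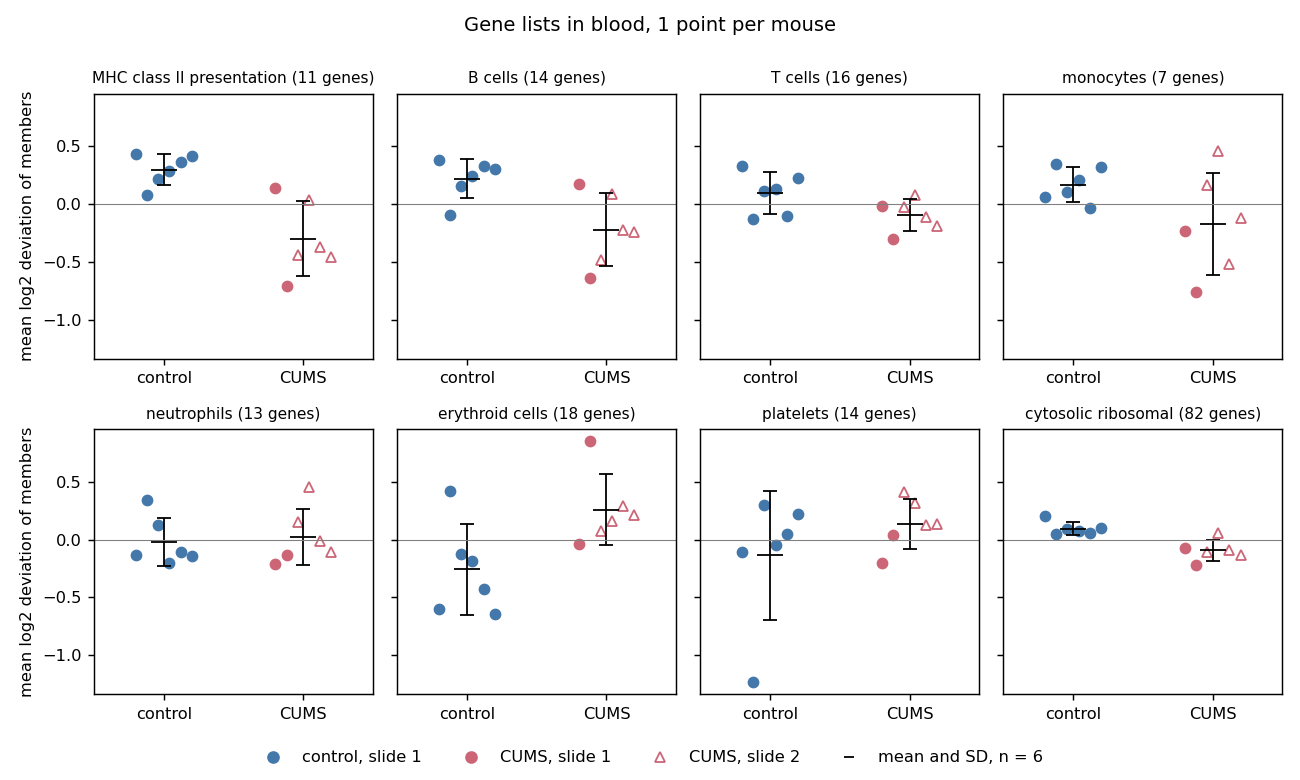
Mean log2 deviation of the detected members of 8 gene lists from their mean over the 12 arrays (y axis) in control and CUMS mice, 1 point per mouse with group mean and SD (n = 6). Filled symbols mark the slide of the controls and open symbols the second slide. The MHC class II values are 0.08 to 0.43 in control mice and -0.70 to 0.14 in CUMS mice, and the erythroid values are -0.64 to 0.42 and -0.04 to 0.85.

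Genes that answer to corticosteroids did not move together. Glucocorticoids bind the receptor Nr3c1 and, with higher affinity, Nr3c2, and the receptors are held ready by Hsp90 chaperones. Of 18 detected glucocorticoid-induced genes 2 were lower and 0 higher, with a median of -0.19. This is 11.1% called, near the 9.07% of all probes called lower. After the base composition step 0 were lower and 1 higher with a median of -0.02. The lower genes were Cebpb (-0.64 ± 0.19 SE, adjusted p = 0.0381) and Pik3ip1 (-0.40 ± 0.13 SE, adjusted p = 0.0459). Cebpb encodes a transcription factor of myeloid cells and Pik3ip1 an inhibitor of PI3 kinase. Of 9 receptor and chaperone genes 2 were higher and 0 lower (22.2% called, against 9.38% of all probes called higher), with a median of 0.24, and 5 were higher with a median of 0.40 after the step. Nr3c2, the mineralocorticoid receptor, read 0.11, 0.33 and 0.87 in control mice and 0.51, 1.38 and 1.75 in CUMS mice, a 1.78-fold rise (0.83 ± 0.21 SE, adjusted p = 0.0233) with overlap. Stip1, which links Hsp70 to Hsp90, read 1.15, 1.32 and 1.48 in control mice and 1.52, 1.85 and 1.99 in CUMS mice, without overlap and 1.4-fold higher (0.49 ± 0.11 SE, adjusted p = 0.0188).

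Of 11 detected clock genes 2 were lower and 0 higher (18.2% called, against 9.07% of all probes called lower), with a median of -0.31 and of -0.08 after the base composition step, when 1 was lower. Arntl, which encodes BMAL1 of the core clock, read -0.29, -0.09 and 0.29 in control mice and -0.97, -0.69 and -0.26 in CUMS mice, 1.47-fold lower (-0.56 ± 0.15 SE, adjusted p = 0.0265). Nr1d2, a clock repressor, read -0.72, -0.29 and -0.10 in control mice and -1.37, -1.02 and -0.53 in CUMS mice, 1.59-fold lower (-0.67 ± 0.15 SE, adjusted p = 0.0177), with an adjusted p of 0.0758 after the base composition step. The overlap with the controls came in part from CUMS mouse 1, which read -0.26 for Arntl and -0.53 for Nr1d2, the highest CUMS value of each.

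Of 9 detected immediate early genes 3 were lower and 0 higher (33.3% called, against 9.07% of all probes called lower), with a median of 0.00, and 2 were lower and 1 higher after the base composition step. Klf2, a factor that keeps lymphocytes in circulation, read 5.09, 5.66 and 5.83 in control mice and 4.64, 4.84 and 5.3 in CUMS mice, 1.59-fold lower (-0.67 ± 0.16 SE, adjusted p = 0.0212). Nr4a1, induced by antigen receptor signals, read 3.13, 3.48 and 3.67 in control mice and 2.27, 2.7 and 3.34 in CUMS mice, 1.64-fold lower (-0.72 ± 0.18 SE, adjusted p = 0.0224). CUMS mouse 1 gave the highest CUMS value of Klf2, among the controls. Interferon-stimulated genes had 1 lower of 19 (5.26% called), Irf9 (-0.50 ± 0.16 SE, adjusted p = 0.0437), and a median of -0.06. The inflammatory list had 1 lower of 10 (10% called), the inflammasome protease gene Casp1 (-0.58 ± 0.15 SE, adjusted p = 0.0262). Neither Irf9 nor Casp1 was called after the base composition step (adjusted p = 0.17 and 0.0789). The Toll-like receptor list had 1 higher of 11 (9.09% called), the RNA sensor gene Tlr8 (0.56 ± 0.15 SE, adjusted p = 0.0254). Among all probes 9.07% were called lower and 9.38% higher, so the shares of the interferon, inflammatory and Toll-like lists were near or below those of all probes.

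Genes of protein synthesis and breakdown lay below the median of all probes. Of 82 detected cytosolic ribosomal protein genes 16 were lower and 0 higher (19.5% called, against 9.07% of all probes called lower), with a median of -0.21, and 4 were lower after the base composition step. Rpl5 was 1.45-fold lower (-0.54 ± 0.14 SE, adjusted p = 0.025). Rps21 read 6.22, 6.43 and 6.56 in control mice and 5.17, 5.53 and 6.22 in CUMS mice, 1.7-fold lower (-0.76 ± 0.17 SE, adjusted p = 0.0177), with -0.49 after the base composition step (adjusted p = 0.0727). CUMS mice 1 and 2 read 6.22 and 6.09, and Rps21 differed between the slides within the CUMS group by -0.75 (adjusted p = 0.0353). Rps29, a reference gene in the study, differed by 0.10 ± 0.12 (adjusted p = 0.573), and the sign of this difference turned with quantile normalization (-0.025) and with the shift to spike-ins (-0.22).

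Mitochondrial ribosomal protein genes were lower in 16 of 73 and higher in 1 (23.3% called). Of all probes 18.4% were called in either direction, 9.07% lower and 9.38% higher. The list median was -0.34, and -0.27 after the base composition step, which left 9 lower. Mrps16 read 2.97, 3.23 and 3.31 in control mice and 2.28, 2.38 and 2.83 in CUMS mice, without overlap (-0.72 ± 0.13 SE, adjusted p = 0.0166). Mrpl17 was lower by 0.67 ± 0.17 SE (adjusted p = 0.0239) on a probe with 48.3% G and C, and by 0.75 after the step. Proteasome subunits were lower in 7 of 37 and higher in 1, with a median of -0.29. This is 21.6% called in either direction, against 18.4% of all probes, of which 9.07% were called lower. After the step 2 were lower and 1 higher. The 1 that rose, Psmd4, an ubiquitin receptor of the proteasome, read 6.31, 6.69 and 6.9 in control mice and 6.95, 7.08 and 7.57 in CUMS mice, without overlap (0.53 ± 0.14 SE, adjusted p = 0.0272). Oxidative phosphorylation genes had 8 lower and 3 higher of 80 (13.8% called, against 18.4% of all probes), and 2 lower and 4 higher after the step. Among the higher ones Cox6a2, a muscle isoform of cytochrome oxidase, was 1.84-fold higher (0.88 ± 0.17 SE, adjusted p = 0.017).

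Cell cycle genes had 1 higher and 2 lower of 14 (21.4% called, near the 18.4% of all probes), and 2 higher and 0 lower after the base composition step. Ccna2, cyclin A2, was 1.59-fold higher (0.67 ± 0.18 SE, adjusted p = 0.0245) and Mcm3, a replication helicase subunit, 1.57-fold lower (-0.66 ± 0.16 SE, adjusted p = 0.0222, and 0.0557 after the step). Clustered histone genes had 5 higher and 4 lower of 42 (21.4% called, near the same 18.4%), and 1 higher and 4 lower after the step. H1f4, a linker histone, read 1.68, 2.02 and 2.52 in control mice and 0.94, 1.27 and 1.41 in CUMS mice, without overlap (-0.79 ± 0.15 SE, adjusted p = 0.017). The replacement histone gene H3f3b, outside that list, was 2.01-fold lower (SE of the log2 difference 0.19, adjusted p = 0.017) and lower on a second, brighter probe (-0.61 ± 0.18 SE, adjusted p = 0.0363).

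**Figure D4:**
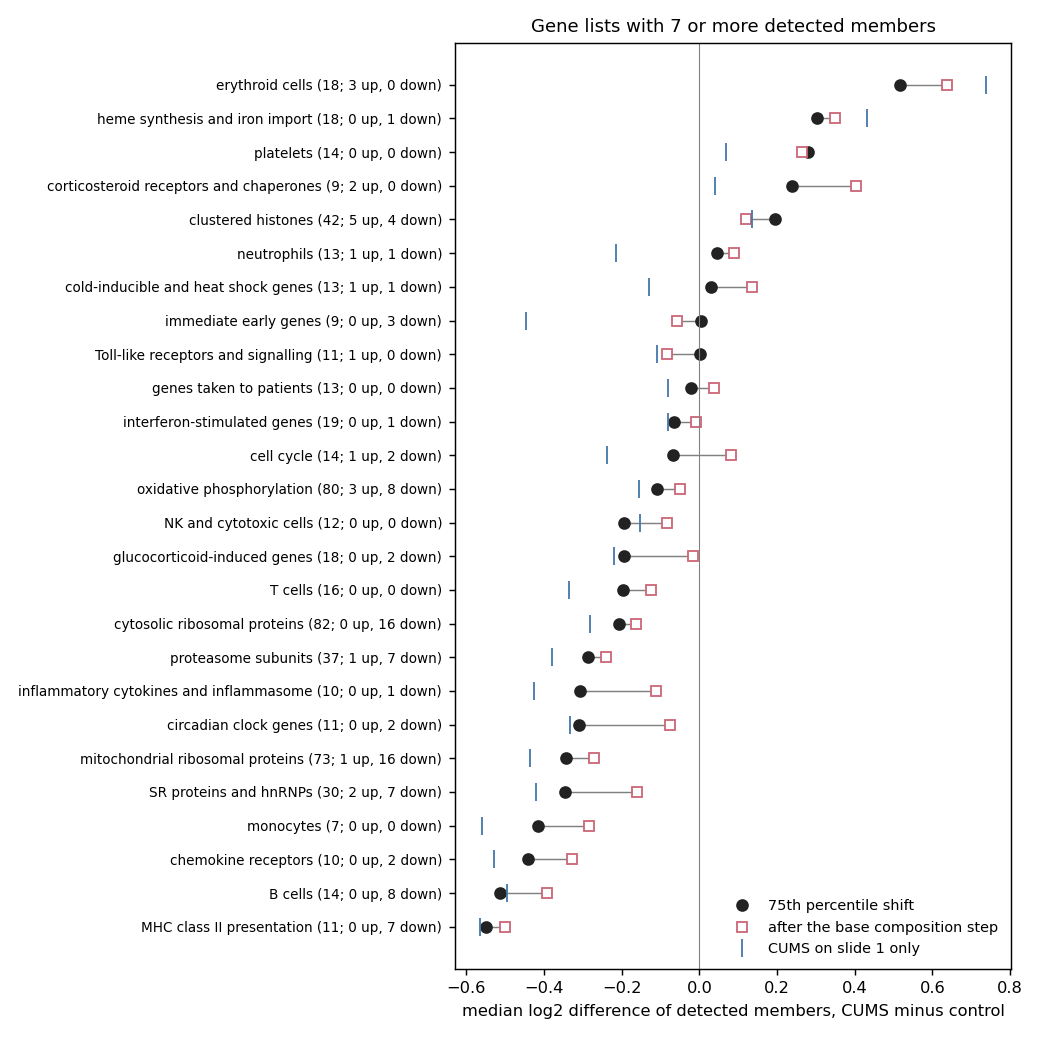
Median log2 difference, CUMS minus control (x axis), of the detected members of each gene list with 7 or more detected members (y axis, with the number detected and the number called in each direction). Filled circles are the values as normalized by the 75th percentile, open squares those after the base composition step, and vertical ticks those of the 2 CUMS mice on the slide of the controls. MHC class II lies at -0.55 and -0.50 by the first 2, and the erythroid list at 0.52 and 0.64.

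Further large falls without overlap were found in genes of varied function. Mcoln2, a lysosomal ion channel of lymphocytes, read 1.84, 1.94 and 2.23 in control mice and 0.72, 0.96 and 1.5 in CUMS mice, 1.9-fold lower (-0.93 ± 0.15 SE, adjusted p = 0.0166). Arl5c, a small GTPase, read 3.03, 3.17 and 3.35 in control mice and 2.03, 2.47 and 2.72 in CUMS mice, 1.74-fold lower (-0.80 ± 0.14 SE, adjusted p = 0.0166), and a second probe with 55% G and C gave 0.05 (adjusted p = 0.895). The phosphatase gene Ppp5c, the zinc finger gene Zfp976 and the transcription pausing factor gene Nelfa were lower by 0.87, 0.86 and 0.91. On the base composition step Nelfa lost its call (adjusted p = 0.0842) and the other 2 of these kept theirs. Aff4, of the super elongation complex, read -0.70, -0.50 and -0.45 in control mice and -2.53, -2.15 and -0.80 in CUMS mice, 2.67-fold lower (-1.42 ± 0.25 SE, adjusted p = 0.0166) on a probe with 25% G and C. CUMS mice 1 and 2, at -0.80 and -1.52, were the highest of the CUMS mice. Aff4 differed between the slides within the CUMS group by -1.18 (adjusted p = 0.0149). With another background correction, normexp, the Aff4 difference was -0.43 (limma adjusted p = 0.0212), so the size of the fall depends on the background taken off.

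The largest rises included genes best known from other tissues. Grik3, a kainate receptor subunit, read -1.58, -1.29 and -1 in control mice and -0.40, 0.45 and 1.87 in CUMS mice, 3.59-fold higher (1.84 ± 0.30 SE, adjusted p = 0.0166). Ahsg, the liver plasma protein fetuin-A, read 0.74, 1.1 and 1.39 in control mice and 1.67, 2.78 and 3.79 in CUMS mice, 3.24-fold higher (1.70 ± 0.26 SE, adjusted p = 0.0166). Neither overlapped between the groups, and CUMS mouse 1 had the lowest CUMS value of both. The same held for the olfactory receptor gene Olfr800 (1.71), the histone pseudogene H2afb2-ps (1.72) and the meiotic gene Sycp2l (1.52), with Tbc1d21 (1.17) and the receptor phosphatase gene Ptprh (1.28) likewise lowest in that mouse. Carboxylesterase genes of the Ces2 cluster were higher without overlap, namely Ces2b (1.36 ± 0.30 SE, adjusted p = 0.0177) and Ces2c (1.06 ± 0.26 SE, adjusted p = 0.0213), and as close paralogs they may share signal. Fthl17f, of the ferritin heavy chain family, rose by 1.41 and differed between the slides within the CUMS group by 1.05 (adjusted p = 0.036). Each of the rises from Grik3 to Fthl17f was smaller with normexp background, with 1.11 for Grik3, 1.44 for Ahsg and 0.83 for Olfr800.

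Cbfa2t3, a corepressor of blood progenitors, read -0.42, -0.21 and 0.17 in control mice and 0.23, 1.04 and 2 in CUMS mice (1.20 ± 0.25 SE, adjusted p = 0.0172), while a second, brighter probe gave 0.02 (adjusted p = 0.92). Vangl1, of planar cell polarity, read 1.17, 1.93 and 2.13 in control mice and 2.37, 2.96 and 3.33 in CUMS mice (1.06 ± 0.20 SE, adjusted p = 0.017), and its second probe gave 0.62 (adjusted p = 0.0702). Such rises were more frequent at low signal: with probes split into 4 equal groups by signal, 741 were higher and 274 lower in the dimmest group, and 277 and 545 in the brightest. Higher-called probes had a median signal of 101, against 224 for lower-called ones. Of the higher-called probes 37.8% matched a RefSeq transcript of a protein-coding gene, against 67.6% of lower-called and 57.6% of uncalled ones. Probes without a RefSeq match count here as not protein-coding, so the rest need not be noncoding. Exocrine pancreas genes had 2 higher of 5 detected (40% called, against 9.38% of all probes called higher), and 1 after the base composition step. Among them was the carboxypeptidase gene Cpa1 (0.71 ± 0.15 SE, adjusted p = 0.0172) at a median of -2.33 in control mice and -1.64 in CUMS mice.

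Of the 14 genes that the study took on to measurement in patients, 13 were detected and 0 were called by limma with Benjamini-Hochberg adjustment, with 1 higher and 1 lower at an unadjusted p under 0.05. The study chose these genes among probes changed in OVX+CUMS mice and not in these CUMS mice, so the lack of calls follows from that choice. The fat cell gene Cidec read -2.46, -2.05 and -1.73 in control mice and -2.86, -1.49 and -0.44 in CUMS mice, with a difference of 0.54 ± 0.30 (adjusted p = 0.201). Rnase1 differed by 0.69 ± 0.29 (adjusted p = 0.0929) and Sigirr, a brake on Toll-like receptor signals, by -0.35 ± 0.14 (adjusted p = 0.0815).

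The difference was set beside the same contrast in ovariectomized mice, OVX+CUMS minus OVX, on arrays of other mice (n = 6 per group). In that pair 6462 of 21675 probes were called. Of the probes called higher in sham-operated mice 84% had a positive difference in ovariectomized mice and of those called lower 81% a negative one, against 71.8% with the same sign among probes not called. This pair also followed base composition, with a median of -0.12 among probes of 18.3% to 38.3% G and C and 0.17 among those of 50% to 91.7%. Probes called lower had a median of 36.7% G and C, and those called higher 45%. The part of base composition in the shared signs was not tested. Cirbp (35% G and C) gave -0.61, Rbm3 -0.22 and -0.59, H2-Aa -0.47, Ahsp 0.30, Grik3 0.94 and Ahsg 1.02. Other named genes differed little or in the other direction there. Among the falls, Ear12 gave -0.04, Ctss -0.07, Nr4a1 0.07 and Retnlg 0.21. Among the rises, Nr3c2 gave -0.10, Epor -0.10 and Cox6a2 -0.14. The medians of MHC class II, B cells and erythroid genes were -0.47, -0.50 and 0.39 in ovariectomized mice. The difference between the contrasts was called for 249 probes (1.15%), among them Ciita, Aff4, Rps21 and Zfp976. Their differences in ovariectomized mice were 0.32, 0.28, 0.38 and -0.05, against falls of 1.23, 1.42, 0.76 and 0.86 in sham-operated mice. This count ran from 0 to 1960 when 1 array was left out. OVX+CUMS mice lay on a further slide with OVX mice 5 and 6, and OVX mice 1 to 4 lay on the slide of CUMS mice 3 to 6.

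In mPFC of the same 12 mice, Rbm3 and Cirbp differed little between the groups. The contrast differed between the tissues for 4808 of 18720 probes detected in both (25.7%), and for 0 with slide as a fixed block within each tissue. The genes given here were chosen by their blood values, which enter this contrast. Rbm3 (40% G and C) gave 0.16 in mPFC against -0.93 in blood (adjusted p of the difference 0.00221). Cirbp (35% G and C) gave -0.03 against -1.27 (0.00242), and the brighter Hnrnpa1 probe -0.15 against -0.86 (0.00311). The Cirbp probe with 53.3% G and C gave 0.14 against 0.03 (0.777). Klf2 and Nr4a1 were 0.58 and 0.56 above control in mPFC and below in blood (adjusted p of the difference 0.00221 and 0.00452).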

How the data were processed

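The intensity of each spot was produced by the authors with Agilent Feature Extraction, per the file headers, as a signal with the background taken off, not yet scaled from array to array. The deposited log2 table holds the authors' values after a shift to the 75th percentile and served as an alternative. Here intensities of the 12 blood arrays were taken to log2, spots of a probe averaged, control and outlier spots left out, and the 75th percentile of each array subtracted. Probes well above background on all 12 arrays were kept. Precision is limited by the number of arrays and by signal over background. The p-values rest on the spread between arrays, 1 per mouse, in which differences between mice, arrays and slides cannot be told apart. The median SD of a probe was 0.216 in control mice and 0.34 in CUMS mice, and 0.278 without CUMS mouse 2.

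Groups were compared with limma (version 3.58.1, under R 4.3.3), two-sided, with Benjamini-Hochberg adjustment at 0.05 and a prior of 4.61 degrees of freedom. Contrasts with ovariectomized mice used all blood arrays, and the contrast between tissues took the mouse as a random block (correlation 0.0793), since the labels pair blood and mPFC by mouse. Named genes were the 12 largest rises and falls among called probes without overlap and at or above the 75th percentile in a group, the 3 largest without that condition, up to 4 called members per list, the genes taken to patients and Rps29. Some genes that meet this rule are not reported here. For a list the brightest detected probe stood for a gene. Of 759 members of 34 lists, 754 were on the array and 633 were detected. The comparison, the genes and the lists were chosen with earlier results of these data known. On simulated data with 200 changed probes, 30% were recovered at a log2 change of 0.5, 74% at 1.0 and 96% at 1.5 and 2.0, with 9 false calls. Whether these figures hold for the measured arrays, which differ by slide and base composition, was not tested. Alternatives were normexp background, quantile normalization, other detection filters, spike-in shift, the authors' values, no moderation, array weights, slide or replicate number as a block, and each array left out. The base composition step (span 0.3) was added after the data were seen. Figures were drawn with matplotlib 3.10.9. Symbols came from a RefSeq gene table where the transcript matched and otherwise from the array.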

Additional observations from a re-analysis of the deposited data

Results flagged for a closer look

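In the groups of 6, the gap between the farthest sample and the next, as a share of the range of the group, was set against Dixon's critical value at 95%. Of 152 groups tested 12 had a gap above it, and chance alone gives about 7.6. Control mouse 2 was the outlying sample for 6 genes. The gap was 0.67 of the range for Ciita and for Klf2, 0.71 for Aff4 and 0.78 for the platelet gene Pf4, all lowest in that mouse, and 0.72 for Nelfa and 0.69 for Csf1r, highest in it. CUMS mouse 2 was outlying for Retnlg (0.80, lowest), for the proteasome gene Psmd4 (0.67, highest) and for the mean deviation of erythroid genes (0.63, highest). The others were Epor in control mouse 3 (0.67, highest), Ppp5c in CUMS mouse 1 (0.63, highest) and the mean deviation of cytosolic ribosomal genes in control mouse 1 (0.67, highest).

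The effect of CUMS in ovariectomized mice minus that in sham-operated mice passed limma's test of the difference for 4 named genes. It was 1.70 for Aff4, 1.56 for Ciita and 1.15 for Rps21, each with an adjusted p of 0.0455, and 0.81 for Zfp976 (adjusted p = 0.0498). The 6 OVX+CUMS mice shared no slide with the sham-operated mice. Of all probes 1.15% passed this test. Most named genes were chosen by their values in sham-operated mice, which enter the test, so passing was favoured.

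The effect of CUMS in mPFC minus that in blood passed the test of the difference for 30 named genes, with the mouse as a random block. Of all 18720 probes tested 25.7% passed it. Most named genes were chosen by their blood values, which enter the test, so passing was favoured. The mPFC arrays of CUMS mice 3 to 6 also lay on a slide without controls. With slide as a fixed block within each tissue 0 probes passed. Where the difference in blood was negative, the contrast was 1.28 for Nr4a1, 1.24 for Klf2, 1.24 for Cirbp (the probe with 35% G and C), 1.10 for Rbm3, 0.91 for Nelfa, 0.80 for Arl5c, 0.76 for Ebf1 and 0.75 for Ctss. It was 0.74 for Irf9, 0.73 for Mrps16, 0.71 for Hnrnpa1, 0.66 for Arntl, 0.63 for H3f3b, 0.62 for Hnrnpd, 0.61 for Zfp976 and 0.59 for Pik3ip1. For the remaining genes it was 0.58 for Mrpl17, 0.58 for Cebpb, 0.56 for Csf1r, 0.56 for Sigirr, 0.54 for Casp1 and 0.48 for Rpl5. Where the difference in blood was positive, the contrast was -1.76 for Cbfa2t3, -1.72 for Grik3, -1.09 for Ptprh, -0.90 for Vangl1, -0.86 for Cox6a2, -0.77 for Nr3c2, -0.42 for Epor and -0.30 for Stip1. The adjusted p of these genes lay between 0.00221 and 0.0471. Control mouse 2 and CUMS mouse 2 were among the blood arrays in each of these tests.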

How the results depend on the processing

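Replicate numbers do not pair mice of the 2 groups: the deviations of same-numbered mice correlated at 0.4502 for number 1, 0.4892 for number 2 and -0.1962 for number 6. With the replicate number as a block 6378 probes were called for CUMS against control in place of 4068, and 0 in place of 249 for the difference between ovariectomized and sham-operated mice.

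The count of 4068 fell to 0 with the shift to the E1A spike-ins (8272 at an unadjusted p under 0.05), where the median of all probes moved from -0.05 to -0.37. The count was also 0 with slide as a fixed block, which repeats the contrast within the slide of the controls and is no separate check. It was 808 with slide as a random block, 32 of 55665 without a detection filter, 2627 after the base composition step, 11999 with array weights and 6192 when all 24 blood arrays set the spread. Leaving out 1 array gave 0 to 7071: 0 without control mouse 1, 668 without CUMS mouse 5, 1018, 1412, 1459 and 2163 without control mice 6, 3, 4 and 5, 1440 without CUMS mouse 6, 6277 and 7071 without CUMS mice 1 and 4, and 6360 without control mouse 2. With the 75th percentile of detected probes 61.9% of 3780 calls were higher, against 50.9%.

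Within the slide of the controls there were 305 calls without a filter, and 0 to 8745 with 1 array left out: 8745 with CUMS mouse 2 alone and 39 with CUMS mouse 1 alone, a lone array assumed to vary like the others. Between slides the 507 calls became 272 with E1A, 215 without a filter and 81 to 2047 with 1 array left out. The 249 calls of the contrast with ovariectomized mice became 1048 with normexp, 427 with quantile normalization, 719 after the base composition step, 13 without moderation, 0 with E1A, without a filter or with slide as a fixed block, and 0 to 1960 with 1 array left out (1960 without CUMS mouse 2). The 4808 calls between tissues became 78 with E1A, 2002 without a filter, 0 with slide as a fixed block within each tissue, and 2849 to 7898 with 1 array left out (7502 without control mouse 2, 7898 without CUMS mouse 4).

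For 63 called genes, which are most but not all of those named, the value was run in every setting, and each kept its sign. Calls were kept by 62 with normexp, 52 after the base composition step, 33 with slide as a random block, 0 with E1A or a fixed slide block and 0 without control mouse 1, and 30 kept theirs whenever another array was left out. The Rps29 difference of 0.10, which was not called, reversed, to -0.025 with quantile normalization and -0.22 with E1A. Uncalled second probes also turned after the base composition step, from 0.03 to -0.09 for Cirbp and from 0.05 to -0.10 for Arl5c. The causes were not tested. Signal over background limits the dim probes.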
